A study of Homo sapiens with 6 samples.

Results

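The 44 genes described here encode proteins that repair DNA breaks and crosslinks or signal their presence, and they were taken by symbol from the 58735 genes of the deposited expression table. Most act in homologous recombination, the Fanconi pathway or the checkpoint, but 5 of the 44 act in non-homologous end joining and MSH6 acts in mismatch repair. PARP genes were not included. The expression was measured by RNA sequencing of total RNA from HGC-27, a long-established line of undifferentiated gastric carcinoma cells of human origin, grown in RPMI 1640 with serum. The shACAT2 cells carried pSIH-H1-Puro-shACAT2, a vector with a short hairpin RNA against the acetyl-CoA acetyltransferase ACAT2, and the shNC cells carried the control vector pSIH-H1-Puro-shNC. Both groups had 24 h with the vector and 7 days of puromycin, so vector and selection are shared, and each group has 3 libraries of selected cell populations of this 1 cell line. The labels give shNC cells as WT and shACAT2 cells as ACAT2 knockdown, and do not say which hairpin the shACAT2 cells carried.

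Homologous recombination repairs a DNA break by copying an intact sister sequence. The MRN complex and RBBP8 trim the ends, BRCA1 and BRCA2 bring in the recombinase, and XRCC2 and its partners, RAD54L and the RecQ helicases carry the exchange through. The Fanconi core complex attaches ubiquitin to FANCD2 and FANCI where DNA strands are crosslinked. The kinases ATM and ATR halt the cell cycle through CHEK2 and CHEK1, with CLSPN, TOPBP1, MDC1 and TP53BP1 as mediators, and the Ku proteins XRCC6 and XRCC5 with PRKDC, XRCC4 and LIG4 rejoin ends directly.

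Levels are in FPKM, fragments per kilobase of gene length with the authors' scaling for library size. The length sums all annotated exons of a gene, and some exons are shared with other genes. Levels of different genes can therefore be set beside each other only roughly. Differences are log2 fold changes of FPKM + 1, shACAT2 over shNC, tested with limma over 13832 genes whose mean in shNC or shACAT2 cells reached 1 FPKM, and p-values were adjusted over all of these. A gene is said to have fallen or risen where the adjusted p was below 0.05. All 44 genes were among those tested. Only 3 libraries a group were sequenced, so an exact permutation test of a single gene cannot go below p = 0.1.

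The libraries held 14086416 to 16067486 fragments on genes. ACAT2 itself had 14.2, 11.7 and 12.7 FPKM in the shNC libraries against 6.19, 5.46 and 6.05 FPKM in the shACAT2 libraries, in the order of their numbers 1 to 3, as for every gene below (log2 fold change −1.01, standard error 0.10, limma adjusted p = 0.0059, and 0.0512 without shNC-3). The shNC-2 and shNC-3 libraries differed from each other by a chi-square of 1.71 per gene, the remaining pairs of replicates by 10.8 to 39.3, and shACAT2-3 had 7477 genes with a fragment in no other library against 416 to 657 in the others. The libraries numbered 1 deviated together from their group means (r = 0.445 over all genes tested). Those numbered 2 and 3 correlated at 0.126 and 0.171, no more than when crossed (0.141 and 0.198). Fits with the replicate number as a block are given where they change a call, but these values do not show that numbers 2 and 3 are pairs. As for cell type markers, KRT18 was listed at 0 in 5 libraries, which need not mean no expression, since genes with shared exons can also be listed at 0, and 5 epithelial markers summed to 0.505 to 0.830 FPKM in shNC and 1.44 to 2.22 FPKM in shACAT2 libraries, while 5 fibroblast markers summed to 102 to 107 and 179 to 201 FPKM and 5 leukocyte markers to at most 1.28 FPKM in either group. Of 6 gastric mucosa markers TFF1, GKN1 and PGC were listed at 0 in every library, and the 6 summed to at most 0.287 FPKM. The 4 mesenchymal markers VIM, CDH2, ZEB1 and FN1 summed to 253 to 298 FPKM in shNC and 349 to 467 FPKM in shACAT2 libraries. CDH2 stayed below 0.1 FPKM in every library, and 4 endothelial markers summed to at most 0.444 FPKM. The part of these markers in the results below was not tested.

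In shACAT2 cells 4 of the 44 genes fell and none rose by limma at an adjusted p below 0.05. The 4 were XRCC6, the Ku70 subunit of the Ku heterodimer, the recombination factor XRCC2, the recombination motor protein RAD54L and the break-signalling scaffold MDC1. They make up 9.09% of the members, while 1.81% of all genes tested fell and 3.3% rose. At an unadjusted p below 0.05, 13 members (29.5%) were lower and 1, XRCC5, was higher, against 10.7% and 12.8% of all genes tested. At an adjusted p below 0.05, limma-voom on the fragments called 5 lower and none higher (4.19% and 4.24% of all genes). With the replicate number as a block 12 members (27.3%) fell and none rose, against 4.81% and 7.67% of all genes. The additional 8 were RBBP8, EXO1, BRCA1, BLM, FANCL, FANCD2, FANCI and CLSPN. Without a block no member passed when shACAT2-2 or any shNC library was left out. None passed when shNC-2 and shNC-3 were averaged. Few genes of any kind did, as 0.10% to 0.25% of all genes fell with 1 of these libraries left out and 0.14% with the average. XRCC6, RAD54L and MDC1 passed without shACAT2-1 (2.44% of all genes fell) and without shACAT2-3 (1.78%). XRCC2 passed without shACAT2-3 only, and FANCD2 passed without shACAT2-1.

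The median log2 fold change of the 44 genes was −0.30, beside 0.016 for all genes tested. It lay below 0 for 36 members (81.8%), beside 47.7% of all genes. The members were chosen with earlier results of these data known, so the contrasts with all genes, here and above, only describe them. Within the pairs of libraries numbered 1, 2 and 3 the median was −0.33, −0.24 and −0.20, and 31 members (70.5%) were lower in all 3 pairs, beside 27.1% of all genes, while 6 members (13.6%) were higher in all 3, beside 30.1%. The 6 were NBN, FANCE, ATRIP, CHEK1, XRCC5 and LIG4. The median depended most on shACAT2-1 and was −0.13 without that library, and 32 members then lay below 0. It was −0.29 without shACAT2-3.

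**Figure D1:**
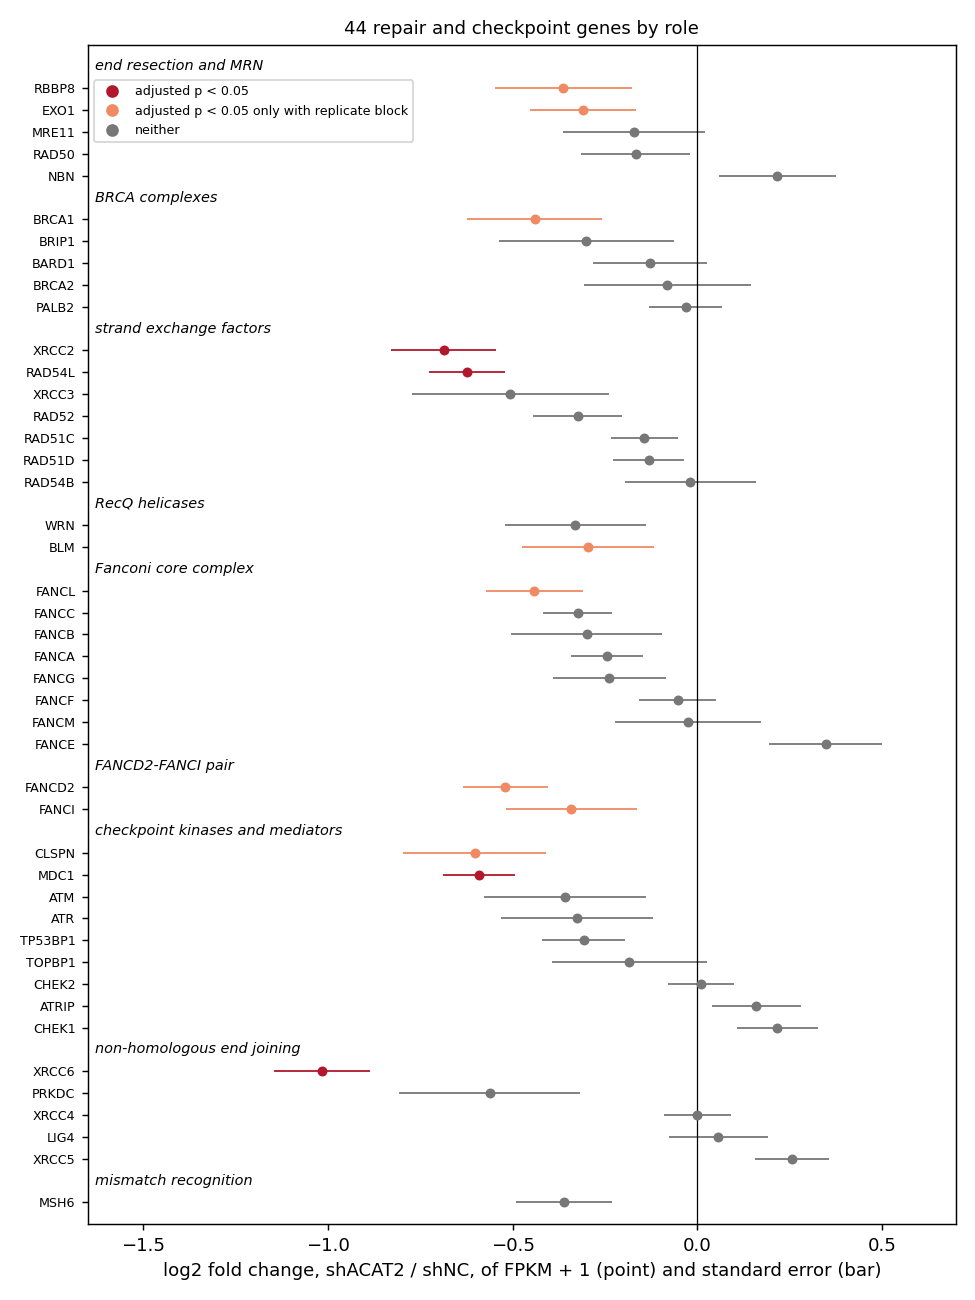
Log2 fold change of FPKM + 1, shACAT2 over shNC (points, horizontal axis), with its standard error (bars) for the 44 genes grouped by role. Dark red points have a limma adjusted p below 0.05 and orange points pass only with the replicate number as a block; 36 of 44 points lie left of 0.

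The starts of the 4 genes that fell are shown because they are the place where shared control letters would be looked for. RefSeq sequences on GRCh38.p14 were available for 38 of the 44 genes, and the 250 bases before each annotated start were searched on both strands for the CCAAT box (CCAAT), the CHR element (TTTGAA) and E2F letters (TTTCGCGC, TTTGGCGC, TTTCCCGC or TTTGCCGC), of which none contains another. Capitals mark a CCAAT box, written ATTGG where it lies on the opposite strand. In XRCC6 (chr22:41621256-41621285, plus strand) and MDC1 (chr6:30717484-30717513 and chr6:30717319-30717348, minus strand) 228 and all 250 bases of the window lie in annotated exons. So only the letters around each CCAAT box are printed, and the CHR letters that MDC1 also holds are not. The RefSeq starts used here lie inside both genes as counted, which begin further upstream at the coordinates given below. Distances to neighbours below use the starts of the counted genes. RAD54L (chr1:46247438-46247687, plus strand) and XRCC2 (chr7:152676166-152676391, minus strand) are given at length, and XRCC2 held none of these letters.
XRCC6: gtagagggcgttgATTGGgaccgagtacag
RAD54L: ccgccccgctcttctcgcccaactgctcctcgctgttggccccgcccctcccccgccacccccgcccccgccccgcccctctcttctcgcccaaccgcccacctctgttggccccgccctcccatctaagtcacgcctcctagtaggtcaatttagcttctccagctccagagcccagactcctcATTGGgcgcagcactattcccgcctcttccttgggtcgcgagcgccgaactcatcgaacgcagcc
MDC1, distal: cccttggagctgcCCAATcgacgtgcatta
MDC1, proximal: acagcggcagaagCCAATcagcaaataagc
XRCC2: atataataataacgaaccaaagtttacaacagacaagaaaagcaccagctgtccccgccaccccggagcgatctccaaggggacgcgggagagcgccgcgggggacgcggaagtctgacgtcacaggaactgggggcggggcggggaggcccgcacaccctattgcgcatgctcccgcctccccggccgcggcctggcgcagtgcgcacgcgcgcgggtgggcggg
A CCAAT box was present in 18 of the 38 members with a sequence (47.4%), beside 33.0% of 27305 RefSeq promoters. The E2F letters were present in 2 members, FANCA and FANCC (5.26%, beside 2.79%), and the CHR letters in 4, MDC1, FANCC, ATM and BRIP1 (10.5%, beside 13.6%). The median log2 fold change was −0.30 for the 18 members with a CCAAT box and −0.27 for the 20 without. A match of letters does not show that a factor binds there.

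The end joining genes held the largest decrease of the 44 and, with XRCC5, a gene that went the other way. XRCC6 (ENSG00000196419, chr22:41621119-41664048) encodes Ku70, which with Ku80 forms the ring that slides onto broken ends. It had 236, 202 and 201 FPKM in the shNC libraries against 118, 93.9 and 103 FPKM in the shACAT2 libraries, and 5084 to 11881 fragments lay behind these values. The groups did not overlap, and the highest shACAT2 library was well below the lowest shNC library. It averaged 213 ± 20.1 FPKM without and 105 ± 12.0 FPKM with the knockdown (SD, n = 3 per group), a log2 fold change of −1.02 (95% confidence interval −1.33 to −0.71, limma adjusted p = 0.011). Processed copies of XRCC6 elsewhere in the genome held at most 5 fragments in any library, so few reads had been assigned to them.

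XRCC5, which encodes the partner Ku80, was not lower. It had 94.4, 90.1 and 87.7 FPKM in the shNC libraries against 108, 104 and 114 FPKM in the shACAT2 libraries. All 3 shACAT2 libraries lay above all 3 shNC libraries, as they did for 16.2% of all genes tested, but the log2 fold change of 0.26 did not pass (95% confidence interval 0.02 to 0.50, limma adjusted p = 0.181). The ratio of XRCC6 to XRCC5 FPKM, which was computed after both values were seen, was 2.50, 2.24 and 2.29 in shNC and 1.09, 0.904 and 0.903 in shACAT2 libraries. The ratio is free of library scaling and did not overlap between the groups (2.34 ± 0.140 and 0.965 ± 0.106, SD, n = 3 per group, two-sided exact permutation test, p = 0.1). With XRCC6 lower and XRCC5 higher in every shACAT2 library, the ratio had to separate. Its p was thus fixed at the lowest possible value and adds nothing to the values of the 2 genes.

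The remaining end joining genes did not pass. PRKDC, the catalytic subunit of the DNA-dependent protein kinase, had 73.2, 94.4 and 91.6 FPKM in the shNC libraries against 39.1, 72.9 and 67.8 FPKM in the shACAT2 libraries, and its log2 fold change of −0.56 had a limma adjusted p of 0.225 (0.055 with the replicate block). The groups did not overlap, but the margin between shNC-1 and shACAT2-2 was far smaller than the spread within either group. XRCC4 and LIG4, scaffold and ligase of the final joining step, had log2 fold changes of 0.00 and 0.06, and XRCC4 averaged 4.68 ± 0.167 FPKM without and 4.69 ± 0.394 FPKM with the knockdown (SD, n = 3 per group). XRCC6, XRCC5 and PRKDC had the 3 highest FPKM levels of the members, and no other member exceeded 23.4 FPKM in any library.

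**Figure D2:**
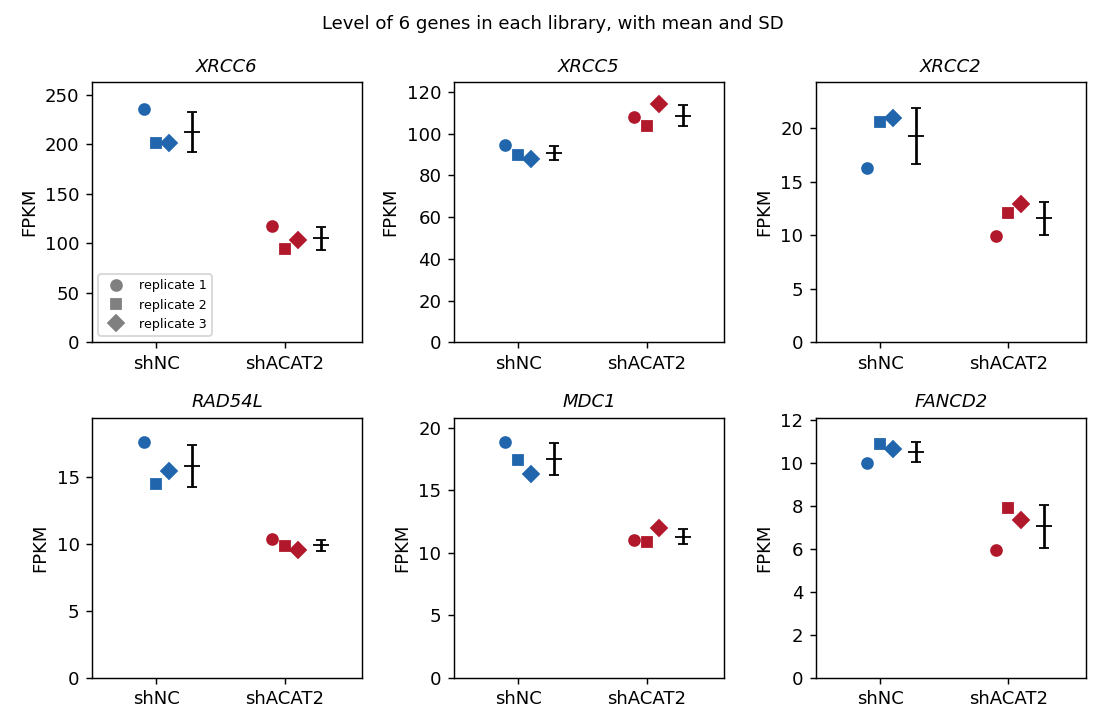
FPKM (vertical axes, from 0) of the 4 genes that fell and of XRCC5 and FANCD2 in each library, with symbols for the replicate number and black marks for the mean and SD of 3 libraries. XRCC6 falls from 201 to 236 FPKM in shNC to 93.9 to 118 FPKM in shACAT2 libraries while XRCC5 lies higher in all 3 shACAT2 libraries.

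Among the strand exchange factors XRCC2, XRCC3, RAD51C, RAD51D, RAD52, RAD54L and RAD54B, 2 of 7 fell, and all 7 had a log2 fold change below 0 with a median of −0.32. XRCC2 (ENSG00000196584, chr7:152644779-152676165) forms part of a complex that stabilises recombinase filaments. It had 16.3, 20.6 and 21.0 FPKM in the shNC libraries against 9.88, 12.0 and 12.9 FPKM in the shACAT2 libraries. The groups did not overlap, and the library numbered 1 was the lowest in each (log2 fold change −0.69, standard error 0.14, limma adjusted p = 0.043, and 0.053 after scaling to the total fragments).

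RAD54L (ENSG00000085999, chr1:46247688-46278473) encodes the motor protein that drives strand invasion. It had 17.6, 14.4 and 15.4 FPKM in the shNC libraries against 10.4, 9.82 and 9.50 FPKM in the shACAT2 libraries. All shACAT2 libraries were lower, and they lay closer together than the shNC libraries (log2 fold change −0.62, standard error 0.10, limma adjusted p = 0.024). Its exons share 806 bases (25.1% of the gene length) with LRRC41 on the opposite strand, the strand setting of the counting is not given in the sources used here, and LRRC41 averaged 11.9 FPKM without and 12.9 FPKM with the knockdown.

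The other 5 genes of the group did not pass. XRCC3 had a log2 fold change of −0.51 (limma adjusted p = 0.304) that was −0.19 without shACAT2-3, where it had 3.88 FPKM against 9.59 and 7.46 FPKM in shACAT2-1 and shACAT2-2. Of its exon bases 76.7% are shared with KLC1 on the opposite strand, which averaged 4.71 FPKM without and 4.09 FPKM with the knockdown. RAD52, which anneals single strands, averaged 4.08 ± 0.0814 FPKM without and 3.09 ± 0.618 FPKM with the knockdown (SD, n = 3 per group). RAD51C and RAD51D, which join XRCC2 in the same complex, had log2 fold changes of −0.14 and −0.13. RAD52, RAD51C and RAD51D had groups that did not overlap, and with XRCC2 and RAD54L this held for 5 of the 7 genes. Of all genes tested 14.5% had shACAT2 libraries entirely below the shNC libraries. RAD54B averaged only 1.07 FPKM without and 1.03 FPKM with the knockdown, on 56 to 112 fragments, and 59.1% of its exon bases are shared with FSBP on the same strand, so its level is uncertain.

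The checkpoint group of 9 genes had 1 that fell. MDC1 (ENSG00000137337, chr6:30699807-30717889) binds the phosphorylated histone beside a break and holds ATM and TP53BP1 there. It had 18.9, 17.4 and 16.3 FPKM in the shNC libraries against 11.0, 10.8 and 12.0 FPKM in the shACAT2 libraries. The groups did not overlap, and the spread within each was small (log2 fold change −0.59, standard error 0.10, limma adjusted p = 0.024). Of its exon bases 8.69% lie opposite MDC1-AS1, which averaged at most 0.080 FPKM in either group.

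CLSPN, the adaptor that brings CHEK1 to ATR, had the largest log2 fold change of the group. Its level was 12.4, 15.7 and 16.8 FPKM in the shNC libraries against 6.96, 10.9 and 11.0 FPKM in the shACAT2 libraries. No shACAT2 library reached the lowest shNC library, but the library numbered 1 was far below the other two in both groups (log2 fold change −0.60, standard error 0.19, limma adjusted p = 0.125, and 0.025 with the replicate block).

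The kinases themselves did not pass in either direction. ATM and ATR had log2 fold changes of −0.36 and −0.33 (limma adjusted p = 0.375 and 0.387), while CHEK1, the kinase downstream of ATR, had 0.22 (limma adjusted p = 0.284) and CHEK2, the kinase downstream of ATM, 0.01 (limma adjusted p = 0.959). ATRIP, which tethers ATR to single-stranded DNA, had 0.16, TOPBP1, which activates ATR, −0.18, and TP53BP1, which protects ends from resection, −0.31. Of the exon bases of TP53BP1 28.7% are shared with TUBGCP4 on the opposite strand, which averaged 5.40 FPKM without and 4.25 FPKM with the knockdown. CHEK2 changed its sign with the scaling, with −0.04 after scaling to the total fragments. ATRIP shares 1515 exon bases (27.9%) with TREX1 on the same strand, and TREX1 was listed at 0 in all 6 libraries.

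**Figure D3:**
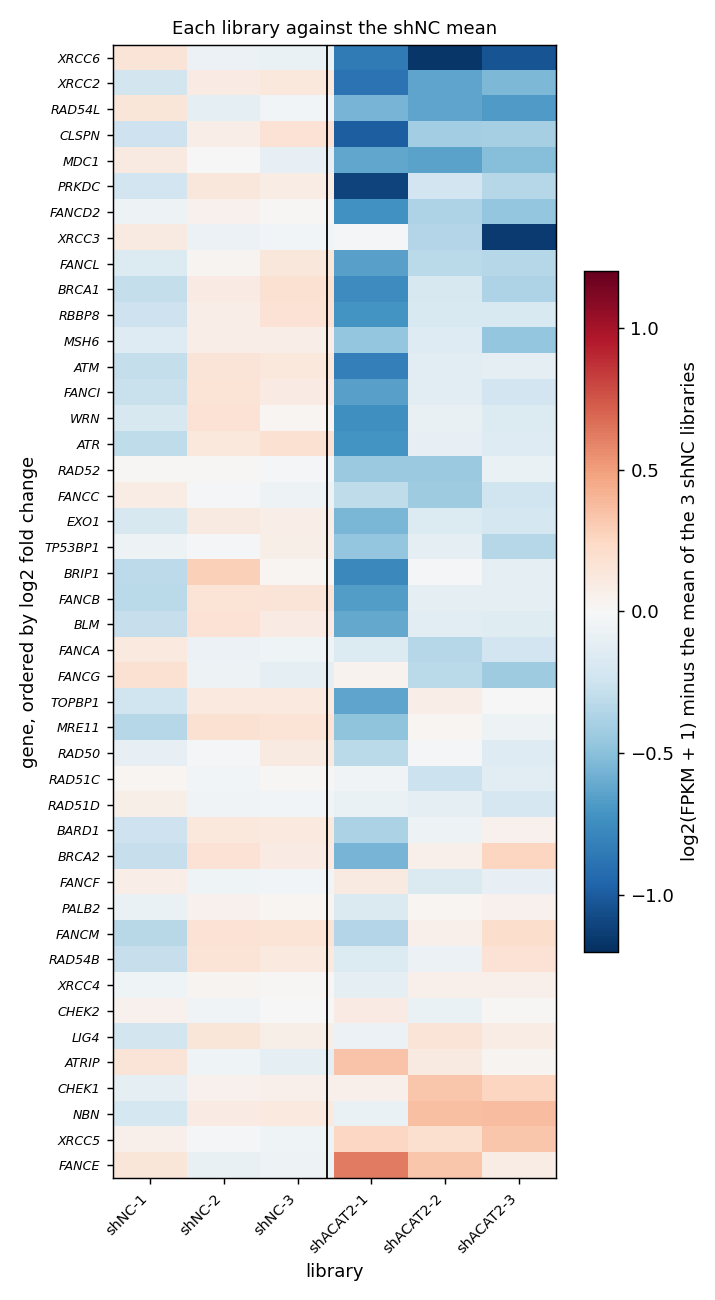
Each of the 44 genes (rows, ordered by log2 fold change) in each library (columns) as log2(FPKM + 1) minus the mean of the 3 shNC libraries (colour, blue lower and red higher). Most rows are blue in the 3 shACAT2 columns, and shNC-1 is bluer than shNC-2 and shNC-3 in 29 rows when set against their mean.

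No gene of the Fanconi core complex fell in the fit without a block, although 7 of 8 had a log2 fold change below 0 and the median was −0.24. FANCL, the ubiquitin ligase subunit, had the largest change. Its level was 11.6, 13.4 and 14.5 FPKM in the shNC libraries against 7.97, 10.3 and 10.1 FPKM in the shACAT2 libraries. The groups did not overlap (log2 fold change −0.44, standard error 0.13, limma adjusted p = 0.107, and 0.029 with the replicate block). Of the exon bases of FANCL 18.7% are shared with VRK2 on the opposite strand, which averaged 6.15 FPKM without and 4.81 FPKM with the knockdown.

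FANCA and FANCC also had groups that did not overlap, with log2 fold changes of −0.24 and −0.32 (limma adjusted p = 0.194 and 0.102). Of the exon bases of FANCA 23.6% are shared with ZNF276 on the opposite strand, which averaged 11.0 FPKM without and 8.86 FPKM with the knockdown. FANCB and FANCG had −0.30 and −0.24, and the remaining −0.05 of FANCF and −0.03 of FANCM were smaller than their standard errors. FANCE, which links the core to FANCD2, was the exception within the complex. It averaged 12.8 ± 1.22 FPKM without and 16.7 ± 3.29 FPKM with the knockdown (SD, n = 3 per group), with overlapping groups (log2 fold change 0.35, limma adjusted p = 0.228).

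FANCD2 and FANCI, the pair that receives ubiquitin from the core complex, did not pass in the fit without a block. FANCD2 had 9.97, 10.9 and 10.6 FPKM in the shNC libraries against 5.94, 7.89 and 7.33 FPKM in the shACAT2 libraries. Its groups did not overlap, and its log2 fold change of −0.52 (standard error 0.12) had a limma adjusted p of 0.053, of 0.043 over the genes with 10 fragments or more in all libraries, of 0.029 with the replicate block and of 0.041 with limma-voom on the fragments. FANCI averaged 18.3 ± 2.99 FPKM without and 14.2 ± 2.72 FPKM with the knockdown (SD, n = 3 per group), and its groups overlapped (limma adjusted p = 0.299, and 0.038 with the replicate block).

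The genes of end resection and of the BRCA complexes did not pass without the block. RBBP8, also called CtIP, which starts resection, had 12.8, 16.3 and 17.4 FPKM in the shNC libraries against 8.97, 13.4 and 13.4 FPKM in the shACAT2 libraries. The overlap came from shNC-1, which was below both shACAT2-2 and shACAT2-3 (log2 fold change −0.36, limma adjusted p = 0.291, and 0.043 with the replicate block). EXO1, the exonuclease that extends resection, had −0.31 (limma adjusted p = 0.251, and 0.046 with the block). Of the MRN complex, MRE11 and RAD50 each had −0.17 and NBN had 0.22, and RAD50 shares 79.7% of its exon bases with AC116366.3 on the same strand and averaged 1.02 FPKM without and 0.805 FPKM with the knockdown.

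BRCA1, the ubiquitin ligase that promotes resection and recruits PALB2, had 7.30, 9.80 and 10.5 FPKM in the shNC libraries against 4.97, 7.81 and 6.83 FPKM in the shACAT2 libraries. The groups overlapped because shNC-1 was below shACAT2-2 (log2 fold change −0.44, standard error 0.18, limma adjusted p = 0.207, and 0.037 with the replicate block). BRIP1, a helicase bound by BRCA1, had −0.30, and BARD1, the partner of BRCA1 in the ligase, −0.13. BRCA2 and PALB2, which load the recombinase, had −0.08 and −0.03, and both signs turned when single libraries were left out.

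Of the RecQ helicases, WRN had 6.37, 8.54 and 7.56 FPKM in the shNC libraries against 4.07, 6.93 and 6.53 FPKM in the shACAT2 libraries. Both groups had their lowest value in the library numbered 1, and the groups overlapped (log2 fold change −0.33, limma adjusted p = 0.347, and 0.082 with the replicate block). BLM, which dissolves joined recombination intermediates, had −0.30 (limma adjusted p = 0.369, and 0.049 with the block). MSH6, which recognises base mismatches, had 19.7, 23.3 and 23.4 FPKM in the shNC libraries against 15.7, 19.8 and 15.7 FPKM in the shACAT2 libraries. Its groups overlapped by a narrow margin, at shNC-1 and shACAT2-2 (log2 fold change −0.36, limma adjusted p = 0.158). Of the exon bases of MSH6 16.2% are shared with FBXO11 on the opposite strand, which averaged 9.24 FPKM without and 6.49 FPKM with the knockdown.

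In all, 14 of the 44 members (31.8%) had shACAT2 libraries entirely below the shNC libraries, beside 14.5% of all genes tested, and XRCC5 was the only member with the opposite separation. The library numbered 1 differed from libraries 2 and 3 of its own group in both groups alike. Its log2(FPKM + 1) was below their mean for 29 of 44 members in shNC and 32 in shACAT2 cells, with a median difference of −0.24 in each, beside 0.070 and 0.082 for all genes tested. For 29 members it was below in both groups. BRCA2 differed by −0.41 in shNC and −0.71 in shACAT2 cells, ATM by −0.42 and −0.69 and PRKDC by −0.34 and −0.83, whereas XRCC6 differed by 0.23 and 0.26. Across the 44 genes, which are not independent replicates, the differences in both groups had a Pearson's r of 0.887, beside 0.445 over all genes, and their r with log10 gene length was −0.30 and −0.39, beside −0.07 and −0.06 over all genes. These points share the library. The labels name no batch behind the numbers, and the part of gene length in the results was not tested.

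**Figure D4:**
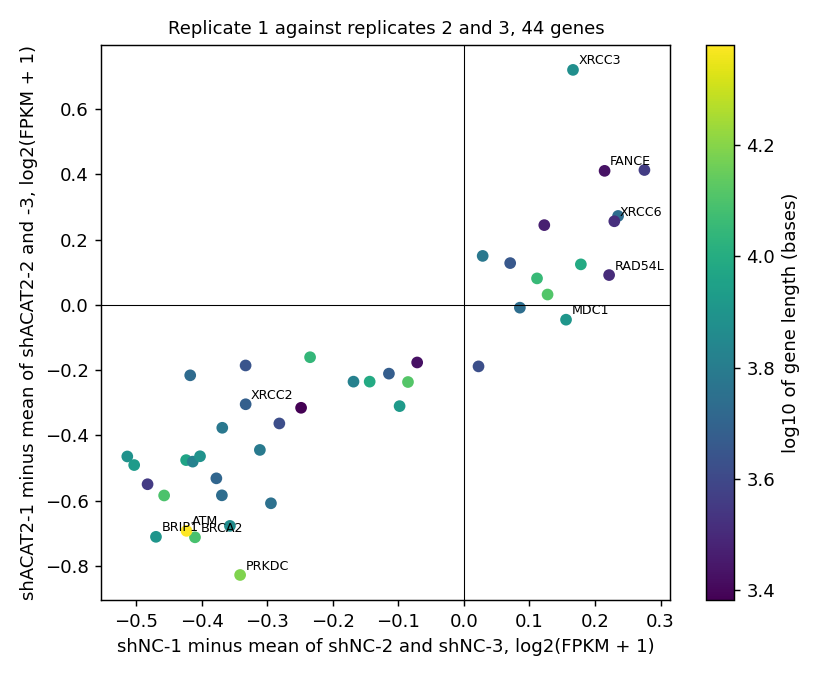
Difference in log2(FPKM + 1) between replicate 1 and the mean of replicates 2 and 3 for the 44 genes, in shNC (horizontal axis) and shACAT2 cells (vertical axis), coloured by log10 gene length in bases. Of the 44 points 29 lie in the lower left corner region, where replicate 1 is lower in both groups.

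Several members share a start region with a gene read in the opposite direction, and these neighbours give a value from the same place in the genome. XRCC6 starts 23 bases from DESI1, which averaged 27.7 ± 2.64 FPKM without and 25.6 ± 3.17 FPKM with the knockdown (SD, n = 3 per group, log2 fold change −0.11, limma adjusted p = 0.648). PRKDC starts 2 bases from the replication helicase gene MCM4, which had 58.1 ± 4.86 and 58.5 ± 4.13 FPKM (SD, n = 3 per group, log2 fold change 0.01, limma adjusted p = 0.962). BRCA1 and NBR1 start 236 bases apart, and NBR1 had a log2 fold change of 0.27 (limma adjusted p = 0.165). Other neighbours had negative values like their member: ERC1 beside RAD52 had −0.39 (limma adjusted p = 0.096, and 0.058 with the replicate block), NPAT beside ATM −0.30 (limma adjusted p = 0.486) and MOSPD2 beside FANCB −0.20 (limma adjusted p = 0.542). Against a lower member, CIDECP beside FANCD2 had 0.22 (limma adjusted p = 0.295) and ZFYVE21 beside XRCC3 had 0.23 (limma adjusted p = 0.259). Of the 12 members with such a neighbour, none had a neighbour that passed in the fit without a block, and MAP1A beside TP53BP1 rose with it (log2 fold change 0.42, limma adjusted p = 0.049 with the replicate block).

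Other genes of the same pathways were listed by name, 88 in all, and 83 of them were tested. TIMELESS fell and none rose by limma, beside 1.81% and 3.3% of all genes tested. At an unadjusted p below 0.05, 11 were lower and 1 higher, beside 10.7% and 12.8% of all genes. TIMELESS, which travels with the replication fork and supports the ATR checkpoint with CLSPN, had 45.4, 39.4 and 40.6 FPKM in the shNC libraries against 27.7, 26.1 and 25.5 FPKM in the shACAT2 libraries. The groups did not overlap (log2 fold change −0.64, standard error 0.10, limma adjusted p = 0.022). The median log2 fold change of the 83 genes was −0.04, with −0.13 for 30 other homologous recombination genes, 0.06 for 14 other Fanconi genes, 0.01 for 25 other checkpoint genes, −0.01 for 10 other end joining genes and −0.08 for 4 other mismatch repair genes. With the replicate block BRCC3, SHLD2, DNA2 and TIMELESS fell and RAD17 and CDC25B rose, beside 4.81% and 7.67% of all genes.

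Checkpoint output and cell cycle genes are given beside the members. For the counts below, 1.81% of all genes tested fell and 3.3% rose by limma. With the replicate block the shares were 4.81% and 7.67%, and at an unadjusted p below 0.05 they were 10.7% and 12.8%. Of 21 damage-induced genes tested, CDKN1A, an inhibitor of cyclin-dependent kinases, rose from 3.73 ± 0.414 to 7.49 ± 1.73 FPKM (SD, n = 3 per group, log2 fold change 0.83, limma adjusted p = 0.034) and GADD45A, a stress-induced growth arrest gene, from 13.2 ± 0.686 to 31.4 ± 7.81 FPKM (SD, n = 3 per group, log2 fold change 1.16, limma adjusted p = 0.021), none fell, and the median was 0.06. With the replicate block SESN2, named after its value was seen, also fell (log2 fold change −0.35, limma adjusted p = 0.104, and 0.049 with the block). Of 36 S phase genes tested, 2 fell and 1 rose with a median of −0.13. The DNA polymerase subunit POLE fell from 9.82 to 7.00 FPKM (limma adjusted p = 0.035) and the histone mRNA binding gene SLBP from 66.9 to 46.0 FPKM (limma adjusted p = 0.044), while the replication clamp PCNA rose from 87.0 ± 1.57 to 141 ± 12.3 FPKM (SD, n = 3 per group, log2 fold change 0.68, limma adjusted p = 0.021). None of 25 G2/M genes passed by limma without the block (2 at an unadjusted p below 0.05), and their median was 0.15. With the block MCM2 and LIG1 of the S phase genes and BUB1B and MKI67 of the G2/M genes also fell, and HMMR of the G2/M genes rose. Fewer cells in S phase and less RNA per cell cannot be told apart in these bulk libraries, and the part of either in the values of the 44 genes was not tested.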

How the data were processed

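Total RNA of 3 shNC and 3 shACAT2 HGC-27 libraries was sequenced, and the labels of the samples gave the groups and replicate numbers. The authors deposited FPKM values for 58735 genes. The submitters' processing notes name HISAT2 2.0.5, featureCounts 1.5.0-p3, DESeq2 1.20.0 and the build hg38, without roles or strand setting. Gene lengths of the 44 members equal summed GENCODE 29 exons. In each library a value times its gene length was a whole number of steps of constant size (100% within 0.01), so the fragments behind it could be read back. The denominator of FPKM was not the total of these fragments.

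Differences were tested by limma 3.58.1 (R 4.3.3, trend on) from log2(FPKM + 1), which understates changes of low genes, for 13832 genes whose mean reached 1 FPKM in shNC or shACAT2 cells, with Benjamini-Hochberg adjustment. Single values were compared with two-sided exact permutation tests. Python 3.11.15 with numpy 2.4.6, pandas 2.3.3 and scipy 1.17.1 was used otherwise. On simulated data for shACAT2 against shNC with 13663 genes, 28.4%, 89.4% and 89.1% of genes changed by 0.5, 1 and 1.5 on the log2 scale were recovered, and 16 unchanged genes were called. The simulated libraries were independent, with the same fixed dispersion for every gene and no shared deviation by replicate number. The real replicates differ in ways the simulation leaves out, so these rates do not give the recovery in the real libraries.

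The members and lists were chosen with earlier results of these data known. The genes described in full were those with an adjusted p below 0.05 and, in each role group, the member with the largest absolute log2 fold change; of the other lists, up to 3 called genes each way, by p, with ACAT2 and CDKN1A. Some genes of the pathways are not reported here. Other genes given library by library, XRCC5, PRKDC and XRCC3 among them, were chosen after their values were seen. Deviations from the group means correlated at 0.445, 0.126 and 0.171 between libraries numbered 1, 2 and 3, each over 0.1. By that limit samples of a number were treated as pairs in the fit with the replicate block, while the main fit had no block. Crossed, shNC-2 correlated with shACAT2-3 at 0.198 and shNC-3 with shACAT2-2 at 0.141, so only number 1 stands out as a pair. Deviations cancel within a group, so a library 1 that stands apart also raises the values among numbers 2 and 3. The series' design text calls the replicates biological, but nothing names separate cultures, so p-values measure the spread between these libraries, which may be technical. Alternatives were a pseudocount of 0.1, every gene without a filter, a minimum of 10 fragments in each library, upper-quartile, total-fragment and median-of-ratios scaling, the replicate block, limma-voom on the fragments, an unadjusted p, shNC-2 and shNC-3 averaged, and each library left out in turn.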

Additional observations from a re-analysis of the deposited data

How the results depend on the processing

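The count of 4 members that fell became 1 with no filter (XRCC6), 12 with the replicate block, 13 at an unadjusted p, 5 with limma-voom and 5 over genes with a minimum of 10 fragments in each library (FANCD2 added in both), 3 with total-fragment scaling and 0 with shNC-2 and shNC-3 taken as 1 library by their average, and ran from 0 to 4 with 1 library left out. The share of all genes that fell moved too, from 1.81% to 0.15% with no filter, 4.81% with the replicate block and 10.7% at an unadjusted p. It was 4.19% with limma-voom, 2.97% with the minimum of 10 fragments and 2.76% with total-fragment scaling. With the average it was 0.14%, and with 1 library left out it ran from 0.10% to 2.44%. The count of members that rose stayed at 0 in every fit with an adjusted p and was 1 at an unadjusted p. The adjusted p of XRCC6 was 0.046 with no filter, 0.072 with the alike shNC libraries as 1 and 0.010 to 0.077 with 1 library left out, while it ran from 0.029 to 0.125 for RAD54L, from 0.034 to 0.132 for MDC1 and from 0.047 to 0.186 for XRCC2 with 1 library left out. Leaving out a library or averaging 2 of them leaves fewer samples, and RAD50 lay below the filter without shNC-3 and in the average. The median of the members, −0.30, was −0.41 with limma-voom and ran from −0.33 to −0.13 with 1 library left out, −0.23 of this without shNC-2. The cause was not tested.

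Among other pathway genes, the 1 that fell became 4 with the replicate block, 11 at an unadjusted p and 0 with the alike shNC libraries as 1 (0 to 2 with 1 library left out), and the count that rose, 0, became 2 with the replicate block and 1 at an unadjusted p. The 3 S phase genes that changed became 5 with limma-voom, 0 with no filter, 5 with the replicate block, 0 with the alike shNC libraries as 1, 1 with upper-quartile scaling and 8 at an unadjusted p (0 to 5 with 1 library left out). The G2/M count of 0 became 3 with the replicate block and 2 at an unadjusted p, and the damage-induced gene count of 2 became 0 with no filter, 0 with the alike shNC libraries as 1, 3 with the replicate block and 0 to 2 with 1 library left out. The log2 fold change of ACAT2 ran from −1.07 to −0.94 with 1 library left out, and its adjusted p was 0.0512 without shNC-3 (log2 fold change −1.01). In this balanced design the replicate block, which follows the pairing, cannot change a fold change, only its error.

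Directions turned for 9 members. With 1 library left out the ranges were −0.25 to 0.16 for BRCA2, −0.074 to 0.039 for PALB2, −0.16 to 0.062 for RAD54B, −0.13 to 0.0066 for FANCF, −0.19 to 0.14 for FANCM, −0.032 to 0.055 for CHEK2, −0.32 to 0.042 for TOPBP1, −0.030 to 0.059 for XRCC4 and −0.054 to 0.13 for LIG4. With upper-quartile scaling PALB2 had 0.0079, RAD54B 0.0061 and FANCM 0.011, and with the alike shNC libraries as 1 RAD54B had 0.052, FANCM 0.059 and CHEK2 −0.0015. CHEK2 and XRCC4 had −0.042 and −0.055 with limma-voom, −0.0053 and −0.014 with median-of-ratios scaling and −0.036 and −0.043 with total-fragment scaling. Over all genes tested these scalings moved the median by at most 0.05 in either direction. Few fragments limit the precision for members such as RAD54B, with 56 to 112 per library, and low listed values of genes with shared exons cannot be compared between genes.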
